A study of Mus musculus with 24 samples.

Results

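Fatty acid oxidation in mouse liver was followed through 35 genes for the enzymes, carriers and membrane proteins of the mitochondrial and the peroxisomal route. The genes were picked by symbol, from knowledge of the pathway and with earlier results of these data known. Every probe on the array that carries such a symbol was read. All 35 were measured, out of 23964 genes tested. They comprise 19 mitochondrial genes, 14 peroxisomal genes and 2 genes, Crat and Eci2, whose products are found in both organelles. Of the 55 probes for these genes 54 were kept, and the probe that stood for each gene was detected above background on each of the 24 arrays. Of the 35 genes, 29 were among the brightest 10% of all genes by mean signal.

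The RNA came from whole livers of wild-type C57Bl/6J males aged 8 weeks, with 1 mouse on each array and 6 mice in each of 4 groups. Every mouse was raised on Safe 04 chow in a cycle of equal light and dark periods and was killed at ZT16. Fed mice ate the chow freely and for 24 hours drank tap water alone, tap water with 20% glucose or tap water with 20% fructose, while fasted mice had no food for 24 hours. The fed mice with water are the controls of every comparison except that of fructose with glucose, so the comparisons with water share those 6 mice. Each of 3 slides carried 2 mice of every group. The number of probes well above background was 32516 to 36274 per array, and correlations between arrays, across genes, were 0.970 to 0.995.

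Fatty acids are burned by removing 2-carbon units as acetyl-CoA in repeated turns of a 4-step cycle, beta-oxidation. Long chains are activated to acyl-CoA and enter mitochondria bound to carnitine, a step that malonyl-CoA, the first intermediate of fatty acid synthesis, holds back. Very long and branched chains are first shortened in peroxisomes, whose first step passes electrons to oxygen, and the shorter products leave for the mitochondria. In liver, fasting is known to raise both routes, largely through the nuclear receptor PPAR alpha, and sugar feeding is known to favour fatty acid synthesis.

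Levels are given on a log2 scale, as the log2 signal minus the log2 of the 75th percentile of the array's signals. On that scale 1 unit is a 2-fold difference, and levels are compared between mice for the same probe only. A gene was called when its Benjamini-Hochberg adjusted p, over all 23964 genes in limma, was under 0.05. Fold changes carry the standard error (SE) of the limma fit.

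Fasting against feeding with water asked how the liver answers a day without food. Among the 35 oxidation genes 31 rose, 1 fell (Acox3) and 3 did not pass the test (Acaa2, Abcd2 and Scp2). Over all genes 42.6% were called, 20.9% higher and 21.7% lower, and among the brightest 10% of genes 28.4% were called higher and 26.2% lower. The median log2 fold change of the 35 genes was 0.71, a 1.63-fold difference, beside a median of 0.009 over all genes. The fold changes ran from -0.68 for Acox3 to 2.42 for Ehhadh, and 9 genes were at least 2-fold higher. For 23 of the 35 genes every fasted mouse lay above every fed mouse with water, and for 1, Acox3, every fasted mouse lay below, beside 12.1% and 12.4% of all genes.

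**Figure D1:**
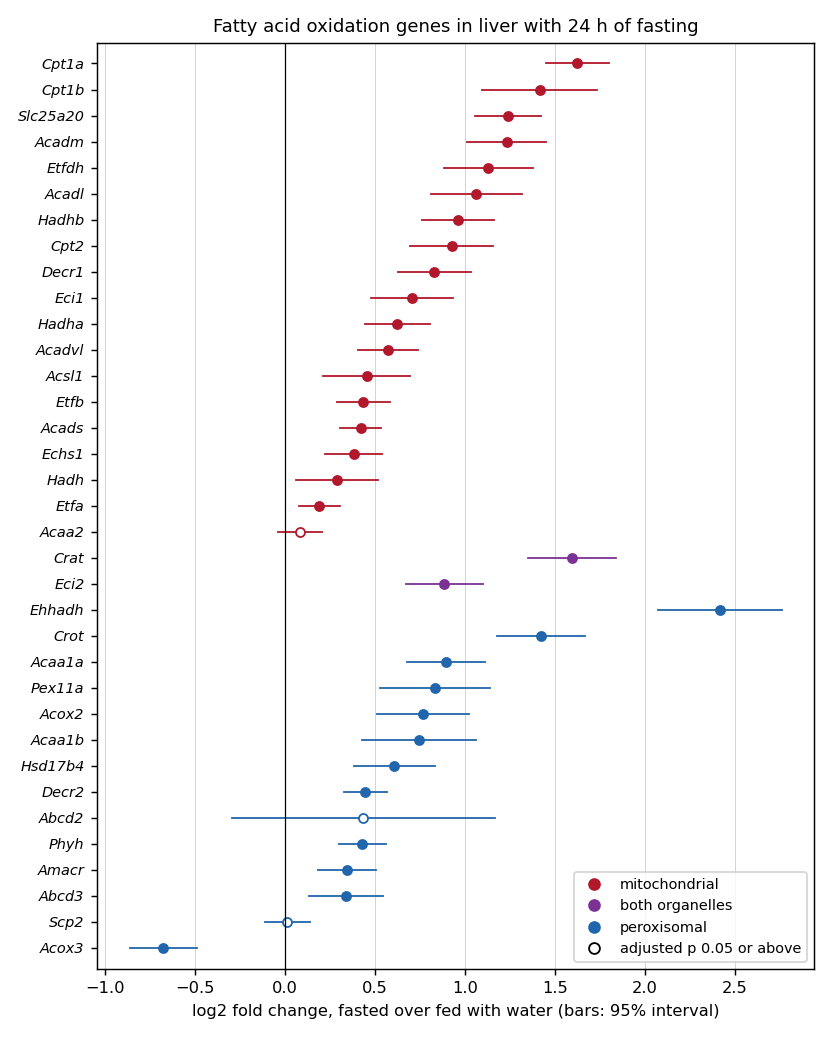
Log2 fold change of each of the 35 oxidation genes between fasted and fed mice with water, with the 95% interval of the limma fit as a bar, 6 mice in each group. Filled points passed the test: 31 lie above 0, Acox3 lies below, and the open points are Acaa2, Abcd2 and Scp2.

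By compartment, 18 of 19 mitochondrial genes and 11 of 14 peroxisomal genes rose, as did both genes of the shared pair. The median log2 fold change was 0.71 for the mitochondrial and 0.53 for the peroxisomal genes, a 1.63-fold and a 1.44-fold difference. The widest spread was among the peroxisomal genes, which held both the largest rise and the only fall. The medians differed by 0.18, and by 0.0297 with Crat and Eci2 counted as peroxisomal or 0.303 with both counted as mitochondrial, so the size of the gap rests on where these 2 genes are placed. No test was made of the difference between the lists.

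Promoter sequence was taken from the RefSeq table of GRCm38.p6, which held 28 of the 35 genes, as the 250 bases before the transcription start. The 5 promoters printed belong to the peroxisomal genes with the largest rises, Ehhadh and Crot, to the carnitine carrier Slc25a20 and the dehydrogenase Acadm, and to Hadhb, which shares its promoter region with Hadha. Each runs 5′ to 3′ toward the gene, and capitals mark the GC box GGGCGG and the nuclear receptor core AGGTCA, read on either strand. The windows are chr16:21787835-21788084 (minus strand) for Ehhadh, chr5:8997147-8997396 (minus strand) for Crot, chr9:108661886-108662135 (plus strand) for Slc25a20, chr3:153944644-153944893 (minus strand) for Acadm and chr5:30155003-30155252 (plus strand) for Hadhb. None of the 5 windows overlaps a gene in that table.
Ehhadh promoter: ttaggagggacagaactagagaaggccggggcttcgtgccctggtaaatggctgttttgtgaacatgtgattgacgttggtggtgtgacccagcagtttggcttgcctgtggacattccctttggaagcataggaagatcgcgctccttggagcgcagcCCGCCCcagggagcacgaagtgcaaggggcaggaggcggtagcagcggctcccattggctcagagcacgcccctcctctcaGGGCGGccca
Crot promoter: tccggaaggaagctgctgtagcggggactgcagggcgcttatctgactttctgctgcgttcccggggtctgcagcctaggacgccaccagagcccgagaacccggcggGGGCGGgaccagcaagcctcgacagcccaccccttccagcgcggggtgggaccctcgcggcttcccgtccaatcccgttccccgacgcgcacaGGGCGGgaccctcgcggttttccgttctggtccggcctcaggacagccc
Slc25a20 promoter: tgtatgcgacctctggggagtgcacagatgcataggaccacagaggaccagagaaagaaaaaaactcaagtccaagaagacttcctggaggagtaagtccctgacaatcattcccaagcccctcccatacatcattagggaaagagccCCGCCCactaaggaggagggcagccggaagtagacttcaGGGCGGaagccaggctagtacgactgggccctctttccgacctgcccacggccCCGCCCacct
Acadm promoter: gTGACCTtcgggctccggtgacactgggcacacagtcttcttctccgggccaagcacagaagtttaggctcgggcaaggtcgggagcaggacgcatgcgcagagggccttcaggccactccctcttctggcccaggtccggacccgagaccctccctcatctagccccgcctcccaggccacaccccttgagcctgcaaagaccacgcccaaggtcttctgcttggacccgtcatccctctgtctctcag
Hadhb promoter: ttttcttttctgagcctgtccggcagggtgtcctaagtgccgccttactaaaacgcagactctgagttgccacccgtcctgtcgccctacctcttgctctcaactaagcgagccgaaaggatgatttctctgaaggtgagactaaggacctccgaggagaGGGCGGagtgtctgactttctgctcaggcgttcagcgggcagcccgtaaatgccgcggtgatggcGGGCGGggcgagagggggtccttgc
A GC box, GGGCGG on either strand, stood in 18 of the 28 promoters, 11 of 16 mitochondrial, 6 of 11 peroxisomal and that of Eci2, and in 32.9% of the promoters of all 27025 genes in the table. The box CCAAT stood in 10 of 28, beside 34.5% of all. The core AGGTCA stood in 5 of 28, those of Acadm, Acadvl, Cpt1a, Echs1 and Scp2, beside 13.8% of all. The full PPAR response element of textbooks, AGGTCANAGGTCA, which contains that core, was in none of the 28 and in 0.037% of all promoters. These are matches of letters in windows of 250 bases. The log2 fold changes of these 5 genes with fasting, beside a median of 0.71 over all members, were 1.23 for Acadm, 0.57 for Acadvl, 1.62 for Cpt1a, 0.38 for Echs1 and 0.01 for Scp2, which did not pass the test.

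The carnitine shuttle carries activated fatty acids into mitochondria, and all 4 of its genes rose with fasting. Cpt1a encodes the liver form of carnitine palmitoyltransferase 1, the step that malonyl-CoA inhibits, and its probe lies at chr19:3385374-3385433 of mm9. Its level was 5.00 at the lowest, 5.19 at the median and 5.46 at the highest in fed mice with water, 4.96, 5.05 and 5.18 with glucose, 5.15, 5.27 and 5.34 with fructose, and 6.50, 6.92 and 7.03 in fasted mice. Every fasted mouse was thus above all 18 fed mice, and Cpt1a was 3.08-fold higher than with water (log2 fold change 1.62, SE 0.08, limma adjusted p = 1.2e-12). Slc25a20, the carrier that exchanges acylcarnitine for carnitine across the inner membrane, measured 2.05, 2.16 and 2.28 with water, 1.89, 2.03 and 2.16 with glucose, 1.82, 2.13 and 2.29 with fructose and 3.01, 3.42 and 3.65 in fasted mice. The fasted group again did not overlap any fed group, and the fold was 2.36 (log2 1.24, SE 0.09, limma adjusted p = 1.5e-10). Cpt2, which hands the chain back to coenzyme A inside the matrix, was 1.90-fold higher.

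Cpt1b, the form of the same transferase known from muscle and brown fat, was dim in these livers. Its level was -3.11, -2.80 and -2.38 with water, -3.08, -2.92 and -2.66 with glucose, -3.29, -3.03 and -3.01 with fructose, and -1.89, -1.34 and -0.95 in fasted mice. The fasted mice lay above all fed mice, with a 2.67-fold rise (log2 1.42, SE 0.15, limma adjusted p = 9.5e-08). Of 6 skeletal muscle markers 2 were never above background and 0 of the 3 measured ones were called, and their summed signal, in units of the array's 75th percentile, was 0.408 to 0.466 with water and 0.404 to 0.504 in fasted mice. Adipocyte markers summed to 2.08 to 3.72 with water and 2.48 to 4.34 in fasted mice with 2 of 6 called higher, Adrb3 (log2 0.62, limma adjusted p = 0.035) and Adipoq, which was well above background in 1 of 6 mice with water and in 6 of 6 fasted mice and so has no exact fold. Of the 3 brown adipocyte markers Elovl3, an elongase gene that liver also expresses, rose (log2 1.31, limma adjusted p = 0.0049), Cidea did not pass (log2 0.45, limma adjusted p = 0.49) and Ucp1 was never above background. Their summed signal, 6.73 to 23.4 with water and 14.6 to 74.3 in fasted mice, is nearly that of Elovl3 alone, whose mean log2 level with water was 3.86, beside -4.75 for Cidea. The summed stellate cell markers, 3 of 5 of them called lower, were 6.28 to 8.13 with water and 3.65 to 5.53 in fasted mice. The part of any of these cells in the rise of Cpt1b or of the other oxidation genes was not tested. In whole liver, fewer cells of a type and less RNA per cell cannot be told apart, and the 7 hepatocyte markers, all measured, summed to 3048 to 3627 with water and 3344 to 3659 in fasted mice.

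**Figure D2:**
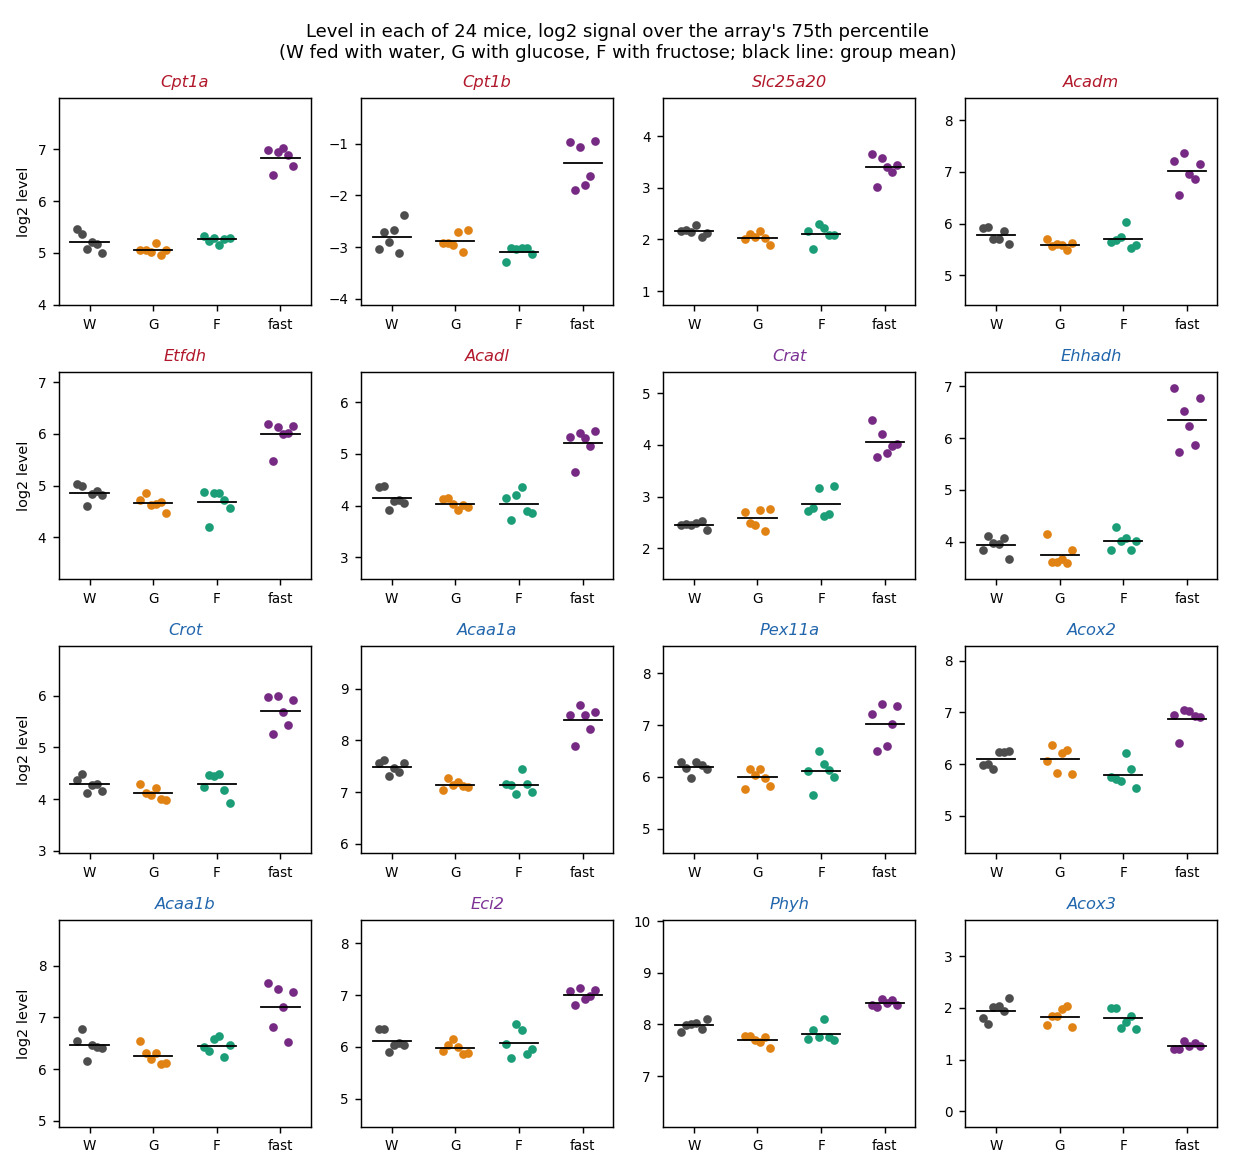
Level of 16 of the genes in each of the 24 mice, as log2 signal minus that of the array's 75th percentile, with a point for each mouse and a line for the group mean. Red names are mitochondrial, blue peroxisomal and purple both, and each panel spans the same number of log2 units; Cpt1a, Ehhadh and Crat stand clear of all fed groups in the fasted mice, and Acox3 lies below them.

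Acyl-CoA dehydrogenases start each turn of the mitochondrial cycle, and all 4 rose. Acadm, for medium chains, measured 5.60, 5.78 and 5.93 with water, 5.48, 5.59 and 5.69 with glucose, 5.52, 5.66 and 6.03 with fructose, and 6.56, 7.06 and 7.37 in fasted mice. With no overlap between fasted and fed mice, the rise was 2.35-fold (log2 1.23, SE 0.11, limma adjusted p = 2.6e-09). Acadl, for long chains, measured 3.91, 4.10 and 4.38 with water, 3.92, 4.03 and 4.15 with glucose, 3.72, 4.03 and 4.36 with fructose and 4.64, 5.32 and 5.44 in fasted mice. It was 2.09-fold higher (log2 1.06, SE 0.12, limma adjusted p = 2.4e-07), and its lowest fasted mouse was still above the highest fed mouse. Acadvl, for very long chains, rose 1.49-fold and Acads, for short chains, 1.34-fold.

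The dehydrogenases pass their electrons to the electron transfer flavoprotein, made of the products of Etfa and Etfb, and on to the respiratory chain through the dehydrogenase encoded by Etfdh. Etfdh measured 4.61, 4.87 and 5.03 with water, 4.47, 4.66 and 4.85 with glucose, 4.19, 4.78 and 4.87 with fructose, and 5.48, 6.07 and 6.20 in fasted mice. It was 2.19-fold higher with no overlap (log2 1.13, SE 0.12, limma adjusted p = 6.3e-08). Of the flavoprotein subunits, Etfb was 1.35-fold and Etfa 1.14-fold higher. The call of Etfa was lost under quantile normalization, where its log2 fold change was 0.12, and with the authors' series table, where it was 0.05.

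Of the later steps of the cycle, all measured genes but Acaa2 rose. The trifunctional protein, which carries out hydration, the second oxidation and cleavage of long chains, has its subunits encoded by Hadha and Hadhb, head-to-head neighbours with 272 bases between them in GRCm38.p6, within which the printed Hadhb window lies. Hadhb rose 1.95-fold (log2 0.96, SE 0.10, limma adjusted p = 3.3e-08) and Hadha 1.54-fold (log2 0.63, SE 0.09, limma adjusted p = 2.8e-06), both with no overlap between fasted mice and mice with water. The enzymes for double bonds of unsaturated fatty acids also rose, Decr1 1.78-fold and Eci1 1.63-fold. Echs1 and Hadh, which act on short chains, rose 1.30-fold and 1.22-fold. A dimmer probe of Echs1 gave a log2 fold change of 0.04 that did not pass (adjusted p = 0.56 in a limma fit of all kept probes). The call of Hadh (limma adjusted p = 0.036) was lost when any 1 of 8 mice was left out, fasted mice 1, 3, 4 or 6 or water mice 3, 4, 5 or 6, with log2 fold changes between 0.22 and 0.29 in those fits. The thiolase gene Acaa2, the last step, did not pass the test (log2 0.08, limma adjusted p = 0.28), was at -0.03 under quantile normalization and passed with a log2 fold change of 0.13 without fasted mouse 2. Acsl1, which activates long chains, rose 1.37-fold.

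Crat and Eci2 serve both organelles. Crat encodes carnitine acetyltransferase, which moves acetyl and other short acyl groups between coenzyme A and carnitine. It measured 2.36, 2.46 and 2.53 with water, 2.33, 2.59 and 2.76 with glucose, 2.63, 2.75 and 3.21 with fructose, and 3.77, 4.00 and 4.48 in fasted mice. The fasted mice were above all fed mice, and the mice with fructose were above all mice with water. Crat was 3.02-fold higher with fasting (log2 1.60, SE 0.12, limma adjusted p = 2.6e-10), a rise exceeded among the 35 genes by those of Ehhadh and Cpt1a alone. Eci2, an isomerase for unsaturated chains, measured 5.89, 6.05 and 6.35 with water, 5.86, 5.96 and 6.16 with glucose, 5.78, 6.01 and 6.44 with fructose and 6.82, 7.04 and 7.13 in fasted mice, a 1.85-fold rise with no overlap (log2 0.89, SE 0.10, limma adjusted p = 2.8e-07).

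Ehhadh had the largest rise of all 35 genes and ranked 103rd from the top among the 23964 genes. It encodes the peroxisomal bifunctional enzyme for hydration and the second oxidation of straight chains, and its probe lies at chr16:21761914-21761973 of mm9. Its level was 3.66, 3.97 and 4.10 with water, 3.58, 3.62 and 4.15 with glucose, 3.83, 4.01 and 4.28 with fructose, and 5.73, 6.38 and 6.98 in fasted mice. The fasted mice lay well above every fed mouse but also spread widely among themselves, and the fold was 5.35 (log2 2.42, SE 0.17, limma adjusted p = 8.2e-11). Hsd17b4, the second peroxisomal bifunctional enzyme, which also takes branched chains, rose 1.52-fold.

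Crot, which attaches shortened chains to carnitine for export from the peroxisome, measured 4.11, 4.29 and 4.49 with water, 3.99, 4.10 and 4.29 with glucose, 3.93, 4.34 and 4.48 with fructose, and 5.26, 5.80 and 5.99 in fasted mice. It rose 2.68-fold with no overlap (log2 1.42, SE 0.12, limma adjusted p = 1.7e-09). A dimmer probe of Crot gave a log2 fold change of 0.66 that did not pass (adjusted p = 0.072 in a limma fit of all kept probes). Among the importers of the peroxisomal membrane, Abcd3 rose 1.27-fold, a call that was lost with the authors' series table (log2 0.22). Abcd2 was dim, with 1 of its 2 probes dropped, and its level of -4.48, -3.89 and -2.54 with water overlapped that of -3.63, -3.29 and -2.38 in fasted mice (log2 0.44, SE 0.35, limma adjusted p = 0.36).

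Peroxisomal thiolases cleave the shortened chain. Acaa1a measured 7.31, 7.52 and 7.62 with water, 7.04, 7.13 and 7.27 with glucose, 6.96, 7.14 and 7.44 with fructose, and 7.88, 8.48 and 8.68 in fasted mice. It rose 1.86-fold with no overlap between fasted mice and mice with water (log2 0.90, SE 0.10, limma adjusted p = 2.6e-07), and mice with glucose lay below all mice with water. Acaa1b, a close copy of it, measured 6.15, 6.45 and 6.77 with water, 6.10, 6.25 and 6.54 with glucose, 6.24, 6.44 and 6.64 with fructose and 6.53, 7.35 and 7.67 in fasted mice. It was 1.68-fold higher (log2 0.75, SE 0.15, limma adjusted p = 0.00033) with overlap, and since the transcripts are alike their probes may share signal. Scp2, a thiolase for branched chains that also gives a sterol carrier protein, did not pass the test (log2 0.01, limma adjusted p = 0.89). Its direction depended on the scaling, since it was -0.24 and called lower under quantile normalization (limma adjusted p = 0.010).

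Peroxisomal oxidases make the first step. Acox2, for branched chains and bile acid precursors, measured 5.91, 6.12 and 6.26 with water, 5.81, 6.13 and 6.37 with glucose, 5.53, 5.73 and 6.22 with fructose, and 6.41, 6.93 and 7.04 in fasted mice. It rose 1.70-fold with no overlap (log2 0.77, SE 0.12, limma adjusted p = 2.3e-05). Acox3, another oxidase for branched chains, went the other way by its brightest probe, at chr5:35956215-35956274 of mm9. Its level was 1.68, 1.98 and 2.20 with water, 1.62, 1.84 and 2.03 with glucose, 1.60, 1.78 and 2.00 with fructose, and 1.20, 1.27 and 1.35 in fasted mice. All 6 fasted mice lay below all 18 fed mice, and the log2 fold change was -0.68, a 1.60-fold fall (SE 0.09, limma adjusted p = 1.8e-06). The other 3 kept probes of Acox3 did not share it, with log2 fold changes of -0.08, -0.11 and 0.29, of which the last passed upward (adjusted p = 0.0445 in the fit of all kept probes). With the mean of its 4 probes the log2 fold change was -0.15 and the call was lost (limma adjusted p = 0.061), so the fall belongs to 1 probe, the 3′-most of the 4.

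Pex11a, which helps peroxisomes elongate and divide, measured 5.98, 6.20 and 6.29 with water, 5.77, 6.01 and 6.16 with glucose, 5.65, 6.12 and 6.51 with fructose, and 6.50, 7.12 and 7.41 in fasted mice. It rose 1.78-fold with no overlap between fasted mice and mice with water (log2 0.84, SE 0.15, limma adjusted p = 6.2e-05). Decr2, the peroxisomal reductase for double bonds, rose 1.36-fold. Phyh and Amacr, which prepare branched chains by alpha-oxidation and by turning the configuration of the chain, rose 1.35-fold and 1.27-fold.

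In a limma fit of all kept probes, 45 of the 54 probes of the members were called higher, 1 lower and 8 were not called. The share of all probes called in that fit was not taken. Probes of a gene read the same mice, so this count adds no separate evidence to that of the genes. Of the 14 members with several kept probes 13 had them all on the same side of 0, the exception being Acox3. In 11 of the 14 the second brightest probe had the higher log2 fold change of the pair.

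The rise was uneven among the fasted mice. In each mouse the mean log2 difference from the water group was taken over the members of each compartment. For the mitochondrial genes it was 0.359 at the lowest, 0.843 at the median and 0.959 at the highest in fasted mice, with a mean of 0.768 ± 0.224 (SD, n = 6), and for the peroxisomal genes it was 0.268, 0.730 and 0.816, with a mean of 0.645 ± 0.214 (SD, n = 6). In water mice the mitochondrial mean lay between -0.096 and 0.089. The mitochondrial mean was above the peroxisomal mean in all 6 fasted mice, by 0.090 to 0.159. Every mouse was read with the same lists, which leave out Crat and Eci2. The 6 mice thus cannot show whether the gap rests on the choice of genes.

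**Figure D3:**
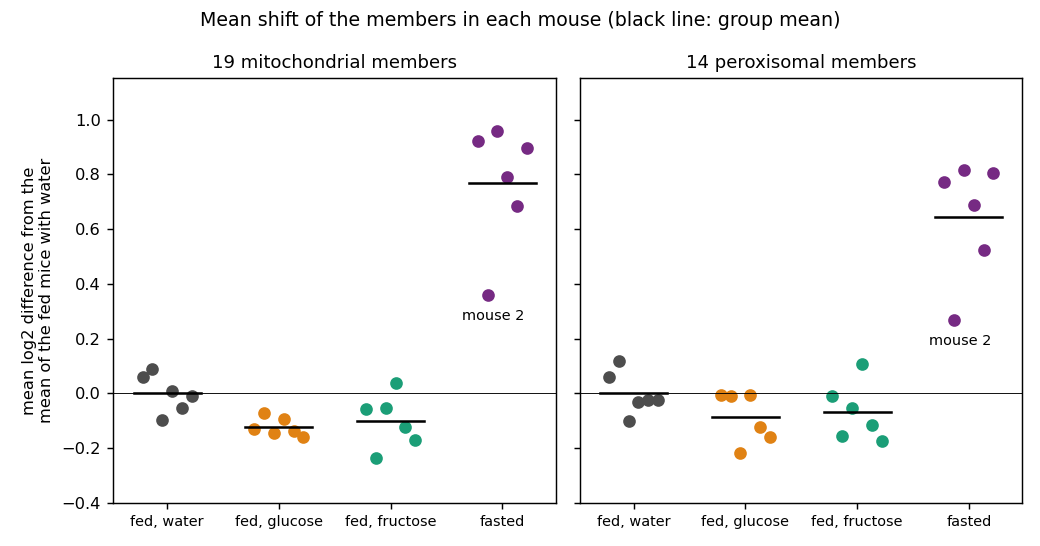
Mean log2 difference from the mean of the fed mice with water, over 19 mitochondrial members (left) and 14 peroxisomal members (right), with a point for each mouse and a line for the group mean. Fasted mice lie between 0.359 and 0.959 on the left and between 0.268 and 0.816 on the right, all above the fed mice, and fasted mouse 2 is the lowest in both panels.

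Fasted mouse 2 was the lowest of the fasted mice for 34 of the 35 genes, the exception being Acaa1b, where mouse 5 was lowest. Its median difference from the water group over the 35 genes was 0.321, beside 0.530 to 0.930 in the other 5. Over the 5006 genes called higher with fasting its median difference was 0.519, inside the 0.477 to 0.557 of the other 5 mice, and over the 5207 called lower it was -0.554, inside their -0.568 to -0.432. Those lists were chosen on the same 6 mice. This mouse was also the lowest in 5 of 7 lists of related genes, which were chosen around the same pathway. The lists for uptake and activation, other acyl-CoA dehydrogenases and other peroxisomal metabolism held both rising and falling genes. A low median there need not be a weaker rise. The mean correlation of mouse 2 with the other fasted arrays, across genes, was 0.989, beside 0.990 to 0.993 for the others. Its array shared slide 2 with that of fasted mouse 5, the next lowest, and within slide 2 the median log2 fold change of the 35 genes was 0.41, beside 0.87 within slide 1 and 0.83 within slide 3. Within slide 2 the genes called higher with fasting had a median log2 fold change of 0.51, beside 0.50 and 0.53. Slide and mouse cannot be told apart here with 2 fasted mice on each slide. Without fasted mouse 2, 32 of the 35 genes were called higher and 1 lower, with medians of 0.83 for the mitochondrial and 0.62 for the peroxisomal genes. Over all 23964 genes 5027 were called higher in that fit, beside 5006 with every mouse kept.

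**Figure D4:**
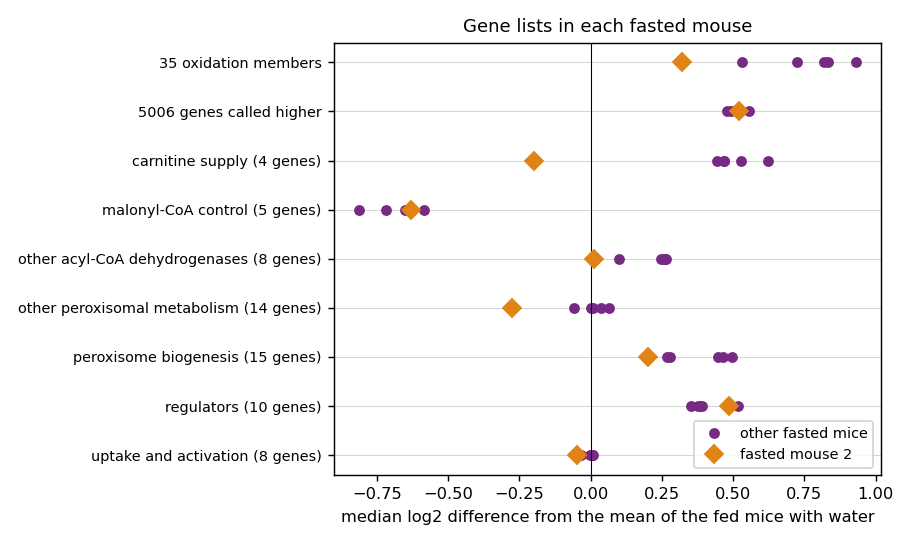
Median log2 difference from the mean of the fed mice with water in each of the 6 fasted mice, for the 35 oxidation genes, for the 5006 genes called higher with fasting and for the 7 lists of related genes, with mouse 2 as a diamond. Mouse 2 lies lowest for the oxidation genes (0.321) and for 5 of the 7 related lists, and within the range of the other mice for the 5006 genes, the regulators and the malonyl-CoA genes.

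The median standard deviation of a gene within the fasted group was 0.260 for the mitochondrial and 0.271 for the peroxisomal genes, beside 0.208 over all genes and 0.123 in the brightest 10%. In water mice the same medians were 0.114 and 0.128, beside 0.178 and 0.0863.

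Other genes that act on the pathway were read from lists of related genes. The counts of each list, here and in the next paragraph, stand beside 20.9% of all genes called higher and 21.7% lower. Of 10 regulators 8 rose and 0 fell with fasting, led by the coactivator genes Ppargc1a (log2 2.57, SE 0.27) and Ppargc1b (1.47, SE 0.16) and by Lpin1 (0.95, SE 0.26), a coactivator that is also a lipid phosphatase. Their median log2 difference in fasted mouse 2 was 0.486, inside the 0.353 to 0.515 of the other mice. Of 5 genes for the control of malonyl-CoA 3 fell and 1 rose. The acetyl-CoA carboxylases Acaca (log2 -2.44, SE 0.14) and Acacb (-1.19, SE 0.18) and the kinase subunit Prkaa2 (-0.67, SE 0.08) fell, and the decarboxylase Mlycd rose (0.64, SE 0.08). Mouse 2 had a median of -0.629 there, beside -0.812 to -0.586 in the others. Of 4 carnitine supply genes 3 rose, the transporter Slc22a5 (log2 2.13, SE 0.14), Aldh9a1 (0.49, SE 0.12) and Bbox1 (0.29, SE 0.09), and there mouse 2 had a median of -0.198, beside 0.442 to 0.623 in the others.

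Fatty acid uptake and activation was mixed, with 4 of 8 genes higher and 3 lower. The fatty acid receptor and transporter Cd36 (log2 1.27, SE 0.16) and the transporter with synthetase activity Slc27a2 (0.83, SE 0.09) rose, while the synthetase Acsl3 fell (-1.61, SE 0.16). Of 8 further acyl-CoA dehydrogenases 4 rose and 2 fell, with Acad11 at 0.75 (SE 0.07), Ivd of leucine breakdown at 0.54 (SE 0.09) and Acad10 at 0.49 (SE 0.11) on the log2 scale. Of 14 genes listed under other peroxisomal metabolism 4 rose and 5 fell, beside 20.9% and 21.7% of all genes. Named from it are the coenzyme A hydrolase Nudt7 at -2.44 (SE 0.10), the transporter Abcd4 at 1.24 (SE 0.10) and Pmvk of sterol synthesis at -1.09 (SE 0.21). The peroxisomal site of the listed products, that of Abcd4 among them, was not tested. Of 15 peroxisome biogenesis genes 9 rose and 0 fell, with the membrane assembly factors Pex16 at 1.102 (SE 0.08) and Pex3 at 0.79 (SE 0.08) first and the docking factor Pex14 at 0.66 (SE 0.10). In fasted mouse 2 the median log2 difference over the uptake and activation genes was -0.047, beside -0.033 to 0.008 in the other 5. Over the other acyl-CoA dehydrogenases it was 0.011, beside 0.101 to 0.265. Over the genes of other peroxisomal metabolism it was -0.276, beside -0.059 to 0.065, and over the biogenesis genes 0.203, beside 0.268 to 0.496. It was thus the lowest of the fasted mice in these 4 lists as well as for carnitine supply. The called values in this and the preceding paragraph had limma adjusted p of 0.0094 or below.

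Glucose against water asked for the response to a sugar drink in fed mice. Of the 35 oxidation genes 0 were called higher and 1 lower, Phyh, where 0.426% of all genes were called higher and 0.459% lower, and 2.71% of the brightest 10% were called lower. Phyh encodes the hydroxylase that begins alpha-oxidation of phytanic acid, a branched fatty acid from the diet. Its level was 7.85, 7.999 and 8.10 with water, 7.55, 7.72 and 7.77 with glucose, 7.70, 7.76 and 8.10 with fructose, and 8.34, 8.40 and 8.49 in fasted mice. Mice with glucose lay below all mice with water, and the log2 fold change was -0.28 (SE 0.06, limma adjusted p = 0.033), a 1.22-fold fall. The call was lost in 9 of the 24 fits that left out 1 mouse, those of glucose mice 1, 2, 3, 4 and 6 and water mice 2, 3, 4 and 6, with log2 fold changes of -0.30 to -0.25. It was also lost with the replicate number of the labels as a block (limma adjusted p = 0.062) and under quantile normalization.

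Apart from Phyh, glucose left the members near their level with water. Their median log2 fold change was -0.14, beside -0.005 over all genes and -0.029 in the brightest 10%, and 31 of 35 values were below 0, beside 51.5% of all genes and 59.8% of the brightest 10%. The medians were -0.15 for mitochondrial and -0.14 for peroxisomal genes. Groups did not overlap for 2 members, Phyh and Acaa1a (log2 -0.35, SE 0.10, limma adjusted p = 0.13), both lower, beside 1.45% of all genes. Without fasted mouse 2, whose spread enters the shared error of the fit, Acaa1a was called lower too. In that fit 335 of all genes were called in either direction, beside 212 in the reported fit. Cpt1a had a log2 fold change of -0.16 (limma adjusted p = 0.48) and Ehhadh -0.20 (limma adjusted p = 0.72). The mean difference from the water group was -0.161 to -0.072 over the mitochondrial genes of single mice, below 0 in all 6, while single water mice reached -0.096, so the groups overlapped.

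Fructose against water gave no call among the 35 genes, where 0.947% of all genes were called and 0.488% called higher. At an unadjusted p under 0.05 there were 7 members, beside 16.2% of all genes. Crat came nearest on the upper side, 1.32-fold higher and with no overlap with water (log2 0.40, SE 0.12, limma adjusted p = 0.094), beside 0.947% of all genes not overlapping upward, and it passed with normexp background correction (log2 0.42). On the lower side Decr2 had a log2 fold change of -0.23 (SE 0.06, limma adjusted p = 0.052), Acaa1a -0.35 (SE 0.10, limma adjusted p = 0.10) and Etfb -0.23 (SE 0.07, limma adjusted p = 0.11). Leaving out fructose mouse 4 brought 4 members past the threshold, Decr2, Acaa1a, Etfb and Phyh, all lower. Leaving out fasted mouse 2 brought 2, Decr2 and Acaa1a, and without fasted mouse 3, glucose mouse 3 or water mouse 3 Decr2 passed. The count over all genes moved too, from 66 to 491 called in either direction over the leave-one-out fits, the highest without fasted mouse 2. In the reported fit it was 227. The median over the 35 genes was -0.08, beside -0.021 over all genes and -0.047 in the brightest 10%, and 28 of 35 values were below 0, beside 55.3% and 66.5%. Cpt1a stood at 0.05 (limma adjusted p = 0.85) and Ehhadh at 0.07 (limma adjusted p = 0.89).

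**Figure D5:**
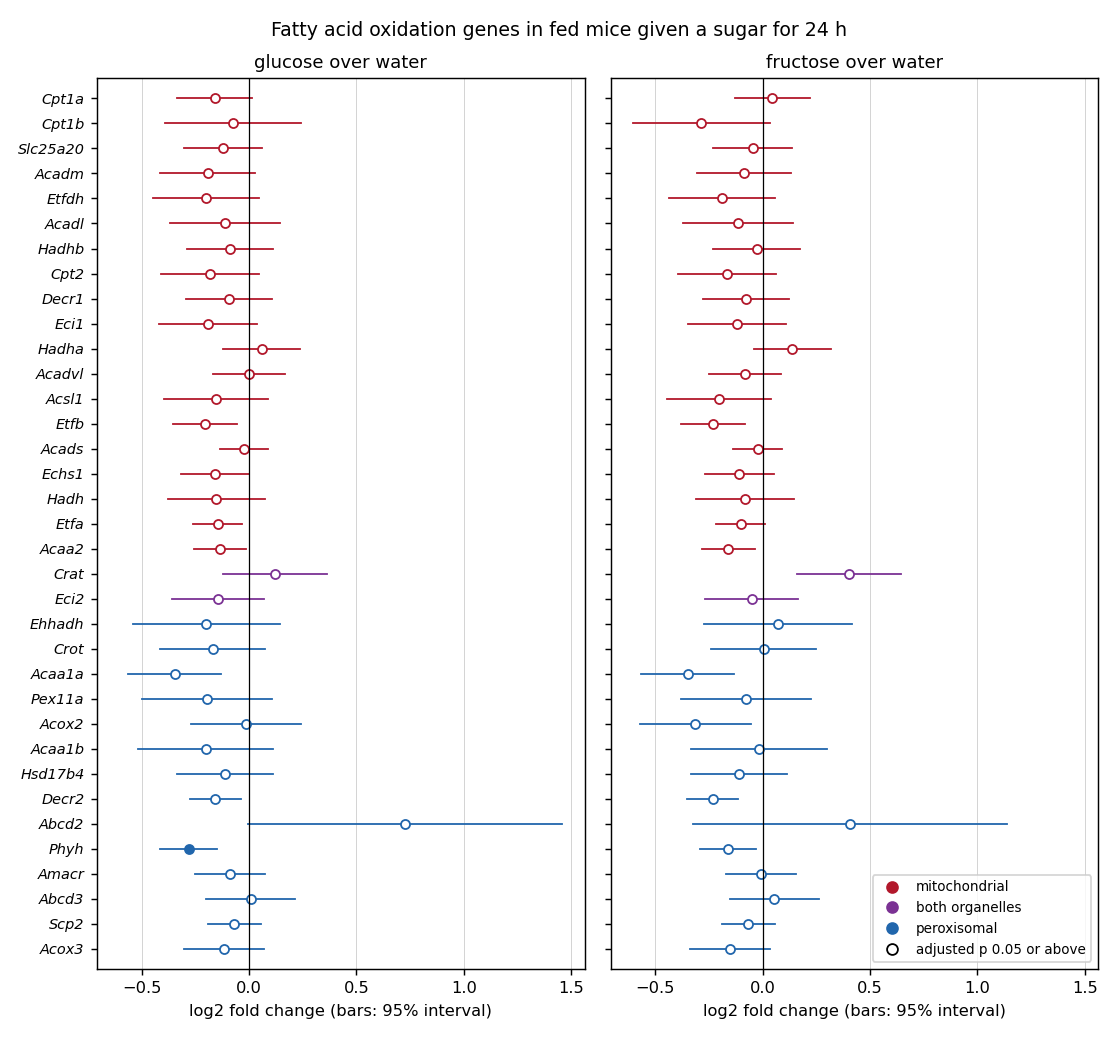
Log2 fold change of the 35 oxidation genes in fed mice with glucose (left) or fructose (right) against fed mice with water, with 95% intervals of the limma fit and 6 mice in each group. The only filled point is Phyh with glucose (-0.28), and most points lie slightly below 0.

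The related lists gave a few calls with the sugars. Acaca, the carboxylase that makes malonyl-CoA, rose with glucose (log2 0.85, SE 0.14, limma adjusted p = 0.0020) and with fructose (0.73, SE 0.14, limma adjusted p = 0.014), opposite to its fall with fasting. Ivd fell with glucose (-0.51, SE 0.09, limma adjusted p = 0.0061) and fructose (-0.52, SE 0.09, limma adjusted p = 0.0069). So did Gcdh of lysine and tryptophan breakdown (-0.42 and -0.43, limma adjusted p = 0.040 and 0.039), and Acadsb fell with glucose (-0.32, limma adjusted p = 0.038). Acadsb with fructose (limma adjusted p = 0.10) and Acad8 of valine breakdown with either sugar (limma adjusted p = 0.65 with glucose and 0.75 with fructose) did not pass, nor did the 4 acyl-CoA dehydrogenases of the fatty acid cycle. Slc27a5, a bile acid and fatty acid activating enzyme of liver, fell with fructose (-0.26, limma adjusted p = 0.040).

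Fructose against glucose compared the sugars with each other. In limma 0 of 23964 genes were called (0%), while 1882 genes, 7.85%, had an unadjusted p under 0.05, 3 of them members. The count over all genes was 4 with normexp background correction, 2 with the mean of a gene's probes and 6 with array weights. Fold changes of the members ran from -0.32 for Abcd2 to 0.28 for Crat on the log2 scale. Cpt1a passed the test with neither sugar against water (log2 -0.16 with glucose and 0.05 with fructose). Between the sugars it differed by 0.21 (SE 0.08, 95% interval 0.03 to 0.38, limma adjusted p = 0.57) and did not pass. That interval is not adjusted for the number of genes. For the median member the 95% interval reached 0.215 to either side of its log2 fold change, and for Abcd2, the widest, 0.731.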

How the data were processed

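Liver RNA was hybridised to 1-colour Agilent arrays, 1 mouse per array, and the authors read them with Agilent Feature Extraction 10.10.1.1, per the submitters' processing notes. Per the file headers, the deposited intensity of each spot was background-subtracted and detrended and was not normalized between arrays. Log2 values of the same arrays, deposited by the authors as a series table with a normalization not given in the sources used here, served as an alternative.

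Control spots and outlier-flagged spots were left out. The log2 intensity minus that of the array's 75th percentile was averaged over the spots of a probe. Probes well above background on at least 6 of 24 arrays were kept (36230 of 56605), and the brightest kept probe stood for its gene. Names came from RefSeq (GRCm38.p6). Coordinates of probes were read from the deposited scanner files and refer to mm9. Precision is limited by the number of mice.

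The 4 groups of 6 mice were fitted together with limma 3.58.1 in R 4.3.3 (data.table package, version 1.17.8), 2-sided, with Benjamini-Hochberg adjustment over 23964 genes within a comparison. All 24 mice share 1 estimate of the spread. The steps were tested on simulated data. The 35 genes and the related lists were chosen with earlier results of these data known, so a list is described by its counts and median, beside those of all genes, and has no p of its own. Values in every group are given for the 6 mitochondrial and 6 peroxisomal members with the largest fasting changes among those called, for Crat and Eci2, for members called with a sugar or called lower with fasting, and for members whose probes disagree in direction; up to 3 genes are named from each related list. Mlycd, Gcdh, Acadsb, Acad8, Slc27a5, Adrb3, Adipoq, Cidea and the values given for Abcd2 were added after values were seen.

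The labels' replicate numbers are not stated to pair mice, and the reported fit used no pairing. Deviations from the group mean of same-numbered mice in different groups correlated at 0.0335 on average, beside -0.00674 for other numbers. Of 36 same-numbered pairs 9 were above 0.1. These values cannot settle whether mice were paired. Promoter sequence was searched for fixed letters on both strands.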

Additional observations from a re-analysis of the deposited data

Results flagged for a closer look

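The spread within each group of 6 mice was examined for each member, 140 groups in all, for a mouse whose gap to the next one was large against the whole range of its group, a rule by which chance alone flags about 1 in 20 groups. It marked 9 values, and 8 of them were the level of fasted mouse 2 as the lowest of its group. That mouse had a level of 6.24 for Cpt2, 4.64 for Acadl, 6.58 for Etfa, 8.13 for Etfb, 5.48 for Etfdh, 6.41 for Acox2, 6.54 for Abcd3 and 5.99 for Amacr, where the next lowest fasted mouse stood at 6.78, 5.15, 6.83, 8.36, 6.00, 6.92, 6.99 and 6.42. The marked values share 1 mouse, so they are not separate events. The other was Acaa2 in fed mice with water, where mouse 5 stood at 9.03 and the next at 9.10.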

How the results depend on the processing

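With any 1 of the 24 mice left out, 31 of the 32 fasting calls kept their side of the threshold, and the 31 other than Hadh had the same sign within each slide. The limits are few mice and, for Abcd2 and Cpt1b, dim signals. Over all leave-one-out fits, genes were counted when called in either direction and members in 1 direction. With fasting 9571 to 10303 genes were called, and 30 to 32 members were called higher. With glucose 113 (without water mouse 4) to 335 (without fasted mouse 2) genes were called, and 0 to 2 members were called lower. With fructose 66 (without water mouse 4) to 491 (without fasted mouse 2) genes were called, and 0 to 4 members were called lower. For fructose against glucose 0 to 3 genes were called. Where a fold change turned its sign or a count moved, the cause was not tested, except that within a slide there are only 2 mice a group.

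Quantile normalization and the authors' series table each gave 2 members lower with fasting, Acox3 and Scp2. Scp2 was at -0.243 and -0.205 on the log2 scale. Acaa2, at -0.0262 and -0.0946, turned its sign in these settings but was not called. The mean of a gene's probes gave 0 members lower. The mitochondrial minus peroxisomal median with fasting, 0.18, was 0.303 with Crat and Eci2 as mitochondrial and 0.0297 with both as peroxisomal. Within slides 1, 2 and 3 fasting called 4248, 4198 and 4176 genes; slide 1 had 0 members lower, and slide 2 had 11 members higher, a median difference of 0.0661, and Hadh at -0.0301, Acaa2 at -0.0817 and Scp2 at -0.120. With 1 mouse left out Scp2 lay between -0.00246 and 0.0524, the highest without fasted mouse 2.

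With glucose, 129 genes were called without a filter on dim probes and 572 with array weights; no member was lower (0) under quantile normalization, the series table, no filter or the replicate block, and 2 were with array weights. Within each slide 0 genes and 0 members were called, the median difference was -0.0758 in slide 1, Cpt1a was at 0.00982 in slide 2 and Ehhadh at 0.104 in slide 3. With fructose, 612 genes were called with normexp, 372 in the series table, 81 without a filter and 488 with array weights, and 0 within each slide. Of these calls 38.9%, 64.2% and 67.9% were higher with normexp, the series table and no filter, beside 51.5% in the reported fit. Normexp called 1 member higher (Crat) and 1 lower (Decr2), the strict filter 1 lower and array weights 3 lower. Slides 1 and 2 gave median differences of 0.0245 and 0.0278; Ehhadh was at -0.00712 and -0.0564 and Cpt1a at -0.00148 and -0.0335 in slides 1 and 3. Fructose against glucose gave 4 genes with normexp, 2 with the mean of probes and 6 with array weights; Abcd2 was at 0.0522 in slide 1, Crat at -0.0455 and Ehhadh at -0.161 in slide 3.

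With the replicate block fasting called 10189 genes, glucose 184 and fructose 177, and Phyh was no longer called with glucose (-0.281, limma adjusted p = 0.0616); no other call of a member changed.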
